A study of Arabidopsis thaliana with 12 samples.

Results

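The 33 identifiers described here stand for the genes of the Arabidopsis thaliana plastid genome that encode the plastid's own RNA polymerase subunits (rpo genes) and ribosomal proteins (rps and rpl genes), together with matK, accD and clpP. They were chosen by locus identifier and not by a threshold on any measured value, though with earlier results of these data known. They were 33 of 37184 genes counted in each library and 33 of 133 plastid-encoded genes. The count tables hold identifiers without names. RefSeq's notes pair 4 of the 33 with a product, which are ATCG00660 with ribosomal protein L20, ATCG00670 with the plastid-encoded CLP P, ATCG00750 with ribosomal protein S11 and ATCG01310 with ribosomal protein L2. The other 29 are given by identifier, and no name or role is assigned to them. Some plastid genes lie in a large repeat and have 2 identifiers; reads that align to both copies are in no gene count, so such genes are undercounted and their values uncertain. Neither the deposited counts nor RefSeq's notes give which identifiers are copies of 1 gene. All counts below are therefore of identifiers, and the number of distinct genes may be smaller.

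Plastids keep a small genome of bacterial origin. Its rpo genes encode the core of a bacterial-type RNA polymerase, which needs sigma factors made in the nucleus and works beside phage-type polymerases that are also nuclear-encoded. The rps and rpl genes encode part of the small and large subunits of the plastid ribosome, the rest being imported from the cytosol. Of the remaining genes, matK encodes a maturase for plastid introns, accD a subunit of acetyl-CoA carboxylase, and clpP the proteolytic subunit of the Clp protease.

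Total RNA of 21-day-old seedlings was sequenced for 4 genotypes with 3 biological replicates each, namely dxo1-2, xrn3-8, the double mutant dxo1-2 xrn3-8, and the Col-0 wild type. Plants of all genotypes were grown on soil in a cycle of 16 h light and 8 h dark, after 2 days of seed stratification at 4 °C. Trizol RNA was depleted of ribosomal RNA (Ribo-Zero Plant Leaf) and turned into strand-specific TruSeq libraries. The submitters state that growth, extraction, library preparation and sequencing of all genotypes ran in parallel, although the Col-0 and single-mutant data were first deposited elsewhere; the nature of the dxo1-2 and xrn3-8 alleles is not given in the labels.

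Gene counts summed to between 60138933 and 81494915 per library (median 69919857), and 23554 to 25312 genes had at least 1 count. Levels are given as CPM, which are gene counts scaled to the library size times its TMM factor. That factor was higher in every library of dxo1-2, xrn3-8 and dxo1-2 xrn3-8 than in every Col-0 library. This lowers the CPM of both single mutants and of the double mutant relative to Col-0. The factors of the double mutant libraries were the highest, so its CPM are lowered the most. XRN3 is a nuclear 5′ to 3′ exoribonuclease. It had 58.3 to 59.6 CPM in dxo1-2, 20.1 to 23.0 CPM in xrn3-8, 38.1 to 44.1 CPM in dxo1-2 xrn3-8 and 51.4 to 52.1 CPM in Col-0. Its level in the double mutant was thus higher than in xrn3-8 (log2 difference 0.90, adjusted p = 7.64e-07, edgeR). AT4G17620, which RefSeq describes as a glycine-rich protein with a RAI1-like domain and which served to check the dxo1-2 label, had 1.29 to 1.73 CPM in dxo1-2, 2.97 to 3.13 CPM in dxo1-2 xrn3-8 and 8.62 to 8.93 CPM in Col-0. It too was higher in the double mutant than in the single mutant dxo1-2 (log2 difference 1.01, adjusted p = 2.72e-05, edgeR). The leaf markers RBCS1A, RBCS3B, CAB1, LHCB2.1 and CA1 were abundant in every library. Root markers (PYK10, CASP1, SCR) were low beside them, with summed levels of 74.1 to 195 CPM over all libraries, and flower and seed markers were at or near 0.

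Plastid transcripts set 3 libraries apart from their own genotype by the size of the deviation. In dxo1-2 xrn3-8 replicate 3, 28 of the 33 identifiers had the lowest level of that genotype, with a median log2 deviation of −0.29 from the mean of the genotype. In xrn3-8 replicate 2, 29 of the 33 had the highest level of that genotype, with a median log2 deviation of 0.29. The other plastid-encoded genes deviated alike (−0.26 and 0.26). Nuclear genes had medians near 0, but the TMM factor centres the bulk of genes, so this cannot show that nuclear levels held steady. In dxo1-2 xrn3-8 replicate 2, 25 of the 33 had the highest level, with a median log2 deviation of 0.22, and the other plastid genes lay as far apart as in the libraries above, at 0.27. Such rank counts were not particular to these 3 libraries, whose deviations were larger. Col-0 replicate 2 had the highest level for 26 of the 33, with a median log2 deviation of 0.06. In dxo1-2 replicate 2, 24 of the 33 had the lowest level, with a median of −0.09. Counts of calls without the 3 libraries are given below.

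**Figure D1:**
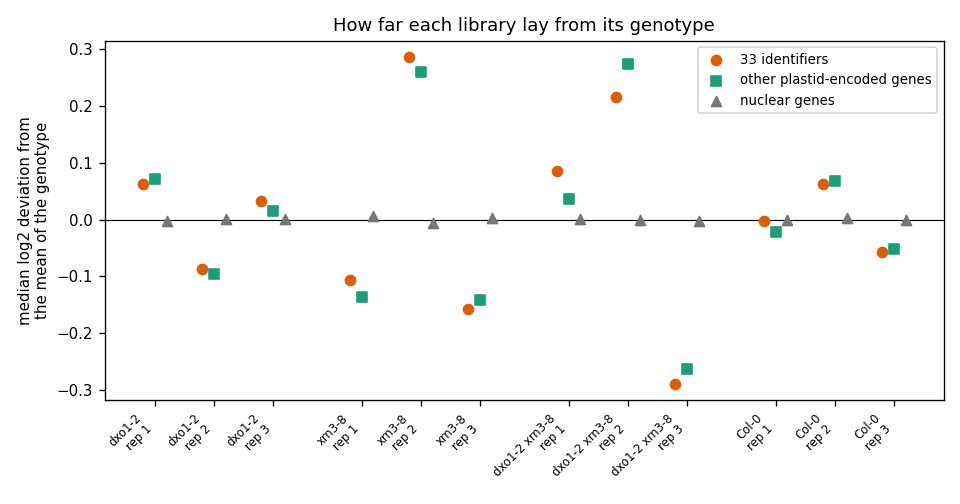
Median log2 deviation of each library (x axis, by genotype and replicate) from the mean of its genotype, for the 33 identifiers (circles), the other plastid-encoded genes (squares) and nuclear genes (triangles). Circles and squares lie together in every library, lowest in dxo1-2 xrn3-8 replicate 3 and high in xrn3-8 replicate 2 and dxo1-2 xrn3-8 replicate 2, and the triangles lie close to 0 throughout.

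All 33 identifiers passed the filter on low counts and were tested with edgeR's quasi-likelihood test, in 1 fit over 12 libraries with Benjamini-Hochberg adjustment over 21974 genes; a gene is called at an adjusted p under 0.05. In dxo1-2 against Col-0, 6 of the 33 (18.2%) fell and 0 rose, where 20.7% of all tested genes were called lower and 21.5% higher. In xrn3-8 against Col-0, 0 of the 33 fell and 0 rose, where 18.1% of all tested genes were called lower and 16.3% higher. In dxo1-2 xrn3-8 against Col-0, 15 of the 33 (45.5%) fell and 0 rose, where 22.0% of all tested genes were called lower and 24.4% higher. These comparisons share the Col-0 libraries. In bulk RNA, fewer plastid-rich cells and less plastid RNA per cell cannot be told apart.

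The median log2 fold change of the 33 identifiers was −0.11 in dxo1-2, −0.03 in xrn3-8 and −0.35 in dxo1-2 xrn3-8, against medians over all tested genes of 0.01, 0.00 and 0.02 in the same comparisons. The 91 other plastid-encoded genes that were tested had medians of −0.31, −0.16 and −0.54, with 27, 4 and 51 called lower and 0 called higher. For xrn3-8, 2 of the 33 identifiers had an unadjusted p under 0.05 in edgeR, both lower, and DESeq2 also called 0.

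The libraries of dxo1-2 lay wholly below those of Col-0 for 11 of the 33 identifiers and wholly above for 0, where 27.4% and 28.3% of all tested genes did so. In xrn3-8 the libraries lay wholly below Col-0 for 1 identifier and wholly above for 0, where the background was 24.2% and 22.9%. In dxo1-2 xrn3-8 they lay wholly below Col-0 for 18 identifiers and wholly above for 0, where the background was 26.6% and 28.9%.

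**Figure D2:**
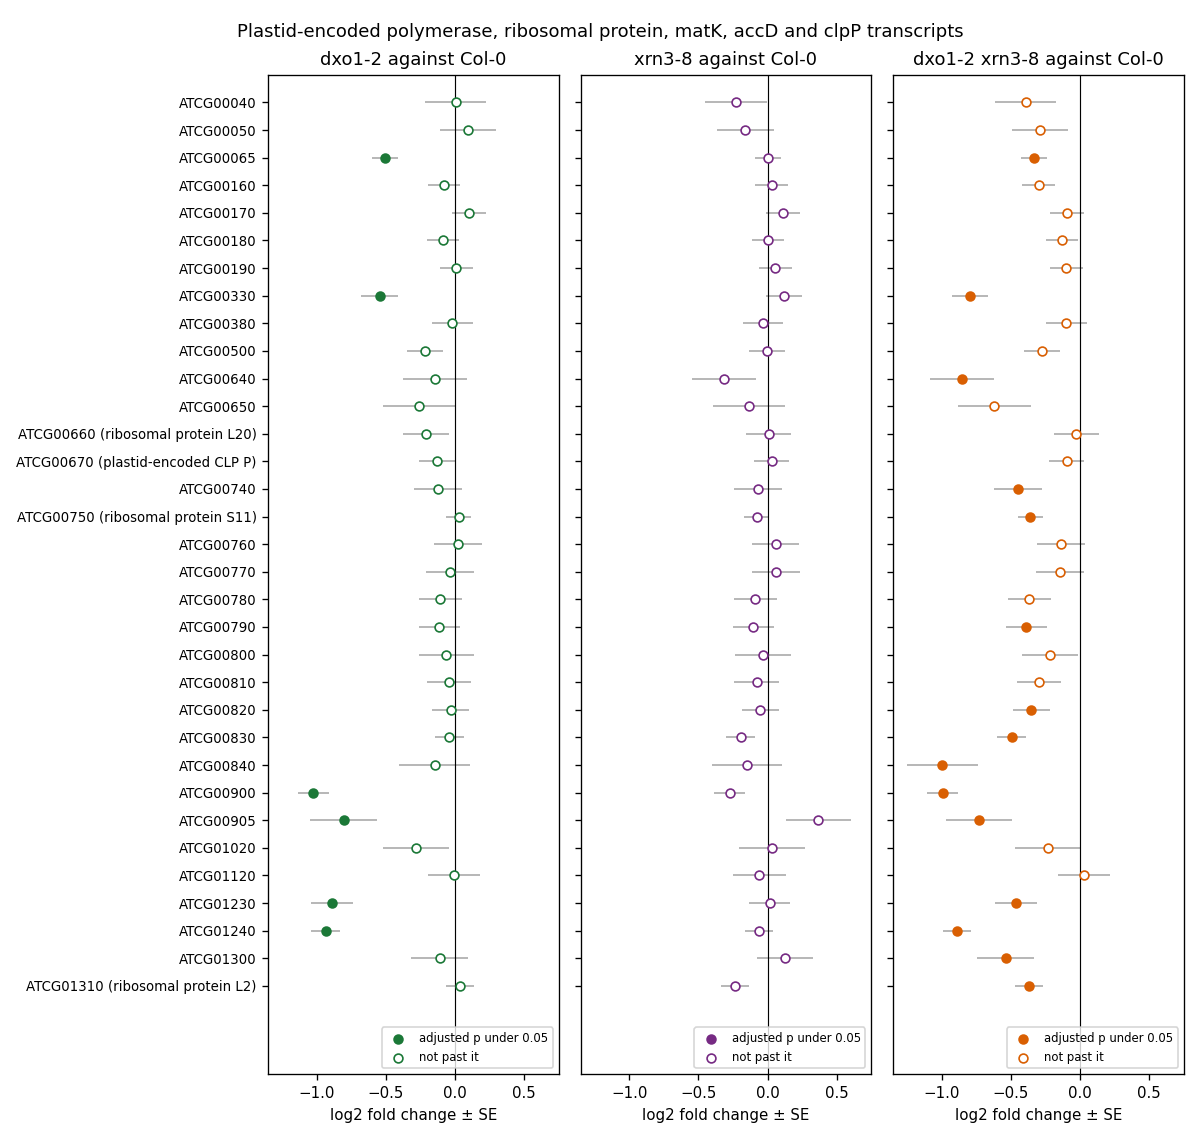
Log2 fold change ± SE of each of the 33 identifiers (rows, with RefSeq's product where its notes give one) against Col-0 in dxo1-2, xrn3-8 and dxo1-2 xrn3-8 (panels), with filled points for an adjusted p under 0.05 in edgeR. The 6 filled points of dxo1-2 are also filled in dxo1-2 xrn3-8, xrn3-8 has none, and all 15 filled points of dxo1-2 xrn3-8 lie below 0.

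The calls turn on whether the counts are scaled by TMM, as above, or to the plastid transcripts. Plastid-encoded genes took 48.0% ± 0.491 of all gene counts in dxo1-2, 51.2% ± 2.22 in xrn3-8, 43.7% ± 2.29 in dxo1-2 xrn3-8 and 51.3% ± 0.465 in Col-0 (SD, n = 3 each). Each dxo1-2 and each dxo1-2 xrn3-8 library lay below every Col-0 library, whereas those of xrn3-8 overlapped with Col-0. Within the plastid counts, the 33 identifiers made up 7.82% ± 0.606 in dxo1-2, 7.55% ± 1.11 in xrn3-8, 8.40% ± 1.41 in dxo1-2 xrn3-8 and 7.01% ± 0.0900 in Col-0. Here the dxo1-2 libraries lay above those of Col-0, though narrowly (lowest 7.12% against a highest of 7.10%), and the other mutants overlapped with Col-0. Without ATCG00040, the most abundant of the 33 by counts, the shares were 5.35% ± 0.384, 5.60% ± 0.627, 6.04% ± 0.861 and 4.97% ± 0.0720 in the same order of genotypes. The pattern then changed. The dxo1-2 libraries (4.91% to 5.62%) and those of xrn3-8 (4.99% to 6.24%) overlapped with Col-0 (4.89% to 5.02%). Those of dxo1-2 xrn3-8 (5.09% to 6.76%) lay above Col-0. Of all gene counts, with no TMM factor, the 33 identifiers made up 3.75% ± 0.316 in dxo1-2 and 3.87% ± 0.700 in xrn3-8. The share was 3.69% ± 0.799 in dxo1-2 xrn3-8 and 3.60% ± 0.0770 in Col-0. Each mutant overlapped with Col-0 there, and no mutant mean was below that of Col-0. No test was run on these shares.

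**Figure D3:**
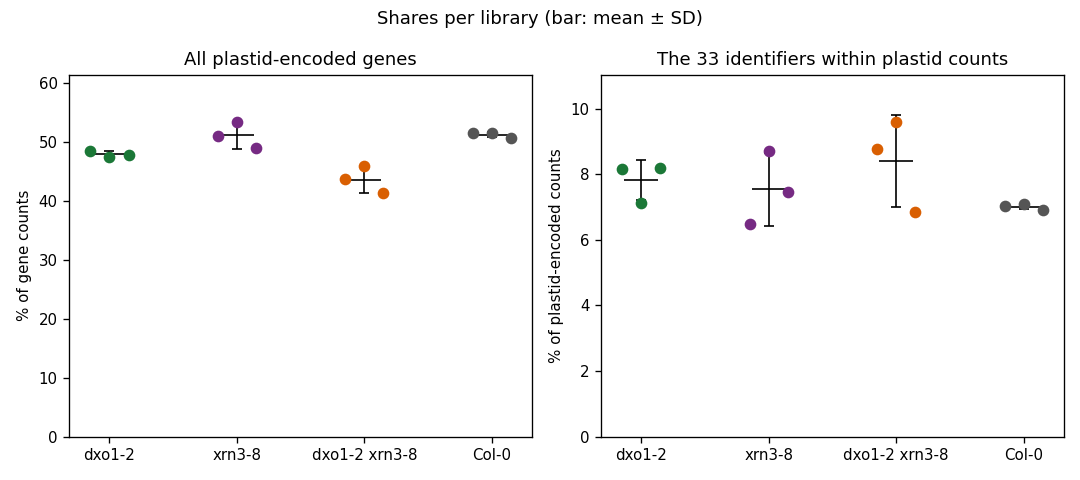
Share of all gene counts taken by plastid-encoded genes (left, %) and share of plastid-encoded counts taken by the 33 identifiers (right, %) in each library, with bars for mean ± SD (n = 3). On the left, dxo1-2 and dxo1-2 xrn3-8 lie below Col-0, and on the right, dxo1-2 lies above Col-0 while xrn3-8 and dxo1-2 xrn3-8 spread across its level.

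When each library was scaled to its plastid total instead, the median of all tested genes moved to a log2 fold change of 0.28 in dxo1-2, 0.17 in xrn3-8 and 0.64 in dxo1-2 xrn3-8. On that scale 5 of the 33 were called lower and 4 higher in dxo1-2, where 8.34% of all tested genes were called lower and 37.8% higher. In xrn3-8, 0 were called lower and 2 higher, where the background was 9.24% and 24.7%. In dxo1-2 xrn3-8, 2 were called lower and 15 (45.5%) higher, where the background was 5.10% and 68.0%. All 6 calls of dxo1-2 stayed negative and 5 stayed called, while in dxo1-2 xrn3-8, of 15 calls, 6 stayed negative, 2 of them called, and 9 turned positive, 2 of them called. The median of the 33 in dxo1-2 xrn3-8 was then 0.26, below the 0.64 of all genes and above the plastid total. The fold changes and CPM that follow are on the TMM scale, and so is each statement that libraries lie below or above others.

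Of the 4 genes with a product in RefSeq's notes, those for ribosomal proteins S11 and L2 fell in the double mutant. ATCG00750 (ribosomal protein S11, of the small subunit) had 685, 672 and 668 CPM in the dxo1-2 libraries, 625, 686 and 569 CPM in xrn3-8, 541, 535 and 473 CPM in dxo1-2 xrn3-8, and 683, 690.0 and 614 CPM in Col-0. All 3 double mutant libraries lay below all libraries of the other genotypes. Its log2 fold change against Col-0 was −0.36 (SE 0.0910, adjusted p = 0.00501, edgeR) in dxo1-2 xrn3-8 and 0.03 (SE 0.0909, adjusted p = 0.836, edgeR) in dxo1-2. With plastid scaling, it was called higher in dxo1-2 xrn3-8, at 0.26.

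ATCG01310 (ribosomal protein L2, of the large subunit) had 29.1, 27.3 and 23.6 CPM in dxo1-2, 23.6, 20.3 and 22.2 CPM in xrn3-8, 17.5, 22.1 and 20.7 CPM in dxo1-2 xrn3-8, and 27.4, 25.6 and 25.0 CPM in Col-0. The dxo1-2 libraries overlapped with Col-0, and those of both xrn3-8 and the double mutant lay below it. The log2 fold change against Col-0 was −0.37 (SE 0.101, adjusted p = 0.00797, edgeR) in dxo1-2 xrn3-8 and −0.24 (SE 0.101, adjusted p = 0.0853, edgeR) in xrn3-8. The double mutant's value with plastid scaling was 0.24.

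ATCG00660 (ribosomal protein L20) had 672, 555 and 663 CPM in dxo1-2, 657, 886 and 659 CPM in xrn3-8, 744, 879 and 521 CPM in dxo1-2 xrn3-8, and 735, 752 and 701 CPM in Col-0. The double mutant libraries spanned the range of Col-0 on both sides. The log2 fold change was −0.03 (SE 0.163, adjusted p = 0.900, edgeR) in dxo1-2 xrn3-8. ATCG00670 (CLP P) had 2482, 2239.9 and 2414 CPM in dxo1-2, 2458, 3023 and 2490.2 CPM in xrn3-8, 2514, 2827 and 1973 CPM in dxo1-2 xrn3-8, and 2579.9, 2662 and 2572 CPM in Col-0. Here too the double mutant overlapped with Col-0, with a log2 fold change of −0.10 (SE 0.127, adjusted p = 0.568, edgeR). With plastid scaling both were called higher, ATCG00660 at 0.57 and ATCG00670 at 0.51.

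The 6 identifiers that fell in dxo1-2 were ATCG00065, ATCG00330, ATCG00900, ATCG00905, ATCG01230 and ATCG01240, and all 6 also fell in the double mutant. These identifiers may stand for fewer than 6 genes. ATCG00900 had 18.4, 19.1 and 16.8 CPM in dxo1-2, 34.7, 30.4 and 26.2 CPM in xrn3-8, 20.2, 17.0 and 18.1 CPM in dxo1-2 xrn3-8, and 36.9, 41.0 and 32.3 CPM in Col-0. Both genotypes that carry dxo1-2 lay below all xrn3-8 and Col-0 libraries, and xrn3-8 overlapped with Col-0. The log2 fold change was −1.02 (SE 0.114, adjusted p = 7.76e-06, edgeR) in dxo1-2 and −0.99 (SE 0.113, adjusted p = 7.43e-06, edgeR) in dxo1-2 xrn3-8, against −0.27 (SE 0.112, adjusted p = 0.0738, edgeR) in xrn3-8.

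ATCG01240 had 12.8, 13.4 and 14.0 CPM in dxo1-2, 25.0, 27.4 and 21.2 CPM in xrn3-8, 15.03, 14.4 and 12.01 CPM in dxo1-2 xrn3-8, and 25.0, 25.2 and 26.6 CPM in Col-0. Again both genotypes with dxo1-2 lay below the other libraries. The log2 fold changes were −0.94 (SE 0.104, adjusted p = 7.93e-06, edgeR) in dxo1-2 and −0.89 (SE 0.103, adjusted p = 9e-06, edgeR) in dxo1-2 xrn3-8. ATCG00900 and ATCG01240 were the 2 identifiers still called lower in the double mutant when libraries were scaled to the plastid total, at −0.37 and −0.28, where all genes had a median of 0.64.

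ATCG00330 had 3433, 3206 and 3384 CPM in dxo1-2, 4940.2, 6222 and 4725 CPM in xrn3-8, 2908, 3177 and 2351 CPM in dxo1-2 xrn3-8, and 4616, 4952 and 5063 CPM in Col-0. All libraries with dxo1-2 lay below all of those without it. The log2 fold change was −0.55 (SE 0.131, adjusted p = 0.00397, edgeR) in dxo1-2, 0.12 (SE 0.131, adjusted p = 0.517, edgeR) in xrn3-8 and −0.79 (SE 0.131, adjusted p = 0.000208, edgeR) in dxo1-2 xrn3-8. The double mutant's call was lost with plastid scaling (−0.19, adjusted p = 0.127, edgeR).

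ATCG00065 had 342, 298 and 336 CPM in dxo1-2, 484, 486 and 419 CPM in xrn3-8, 382, 389 and 330.2 CPM in dxo1-2 xrn3-8, and 455, 476 and 456 CPM in Col-0. The libraries with dxo1-2 lay below those without it. Its log2 fold change was −0.51 (SE 0.0919, adjusted p = 0.000511, edgeR) in dxo1-2 and −0.33 (SE 0.0917, adjusted p = 0.00855, edgeR) in dxo1-2 xrn3-8. With plastid scaling the value of dxo1-2 xrn3-8 turned to 0.28 and was called higher (adjusted p = 0.0136, edgeR), and the call of dxo1-2 was lost (−0.23, adjusted p = 0.0523, edgeR).

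ATCG00905 had 10.4, 10.3 and 9.06 CPM in dxo1-2, 19.6, 33.9 and 13.4 CPM in xrn3-8, 11.2, 8.79 and 11.2 CPM in dxo1-2 xrn3-8, and 18.5, 18.4 and 15.1 CPM in Col-0. ATCG01230 had 5.98, 6.14 and 6.14 CPM in dxo1-2, 13.3, 11.8 and 9.17 CPM in xrn3-8, 9.72, 8.16 and 6.62 CPM in dxo1-2 xrn3-8, and 10.3, 12.9 and 10.7 CPM in Col-0. For both, every library with dxo1-2 lay below every Col-0 library. ATCG00905 changed by −0.81 on the log2 scale in dxo1-2 (SE 0.240, adjusted p = 0.0147, edgeR) and by −0.73 in dxo1-2 xrn3-8 (SE 0.238, adjusted p = 0.0210, edgeR). ATCG01230 changed by −0.89 in dxo1-2 (SE 0.154, adjusted p = 0.000359, edgeR) and by −0.46 in dxo1-2 xrn3-8 (SE 0.151, adjusted p = 0.0209, edgeR). The call of ATCG00905 in dxo1-2 was lost without Col-0 replicate 1, without Col-0 replicate 2 or without dxo1-2 replicate 3. With plastid scaling, the double mutant's value of ATCG00905 was −0.11 (adjusted p = 0.653, edgeR) and that of ATCG01230 0.15 (adjusted p = 0.332, edgeR), so both calls were lost.

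**Figure D4:**
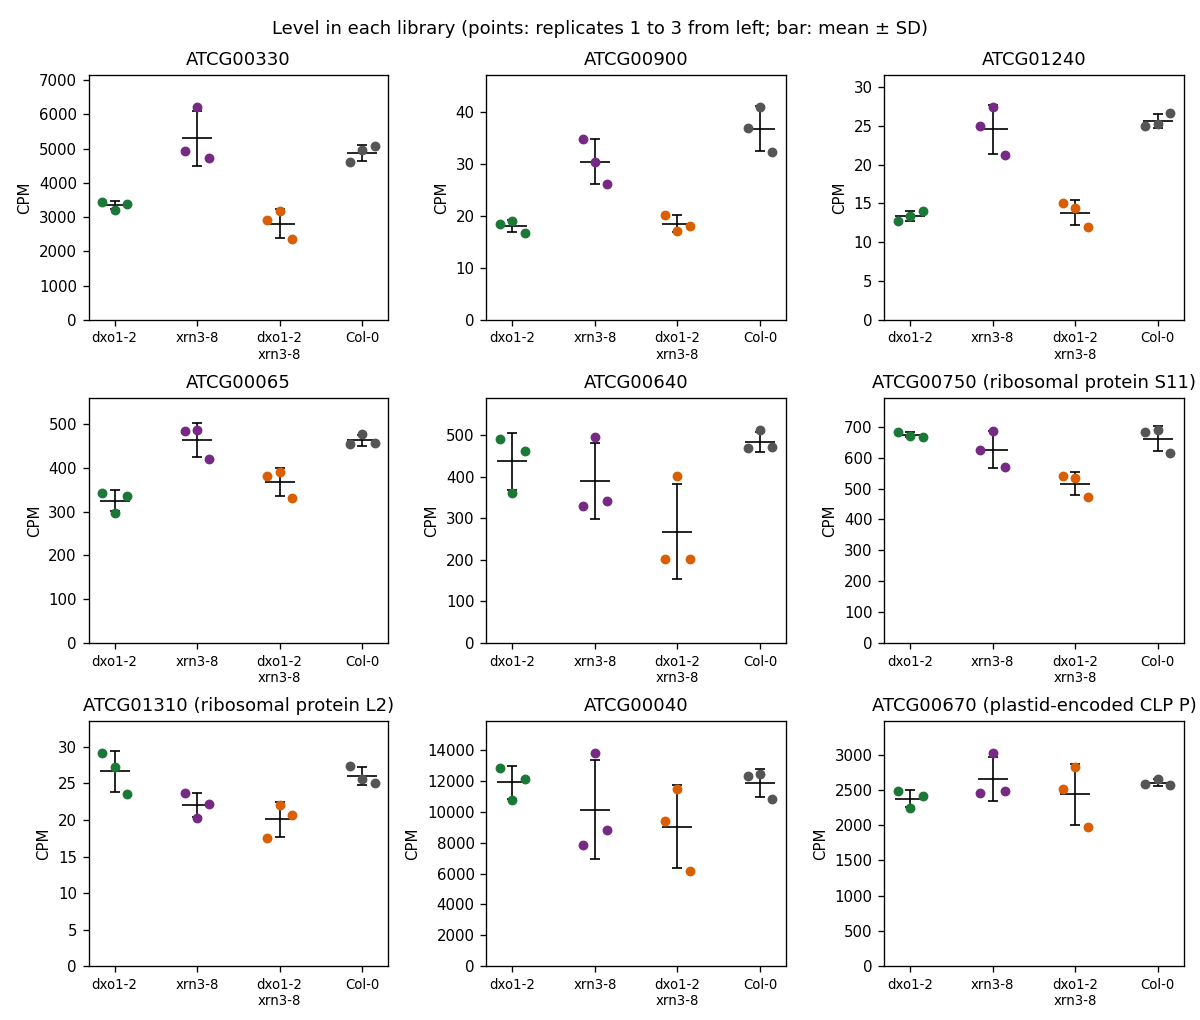
CPM of 9 identifiers in each library (points, replicates 1 to 3 from left), with bars for mean ± SD (n = 3) and y axes from 0. In ATCG00330, ATCG00900, ATCG01240 and ATCG00065, dxo1-2 and dxo1-2 xrn3-8 lie below xrn3-8 and Col-0, in ATCG00750 the double mutant lies below all other libraries, and in ATCG00040 and ATCG00670 the double mutant overlaps with Col-0.

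The other 9 identifiers that fell in the double mutant were not called in either single mutant. Besides ATCG00750 and ATCG01310 they were ATCG00640, ATCG00740, ATCG00790, ATCG00820, ATCG00830, ATCG00840 and ATCG01300. ATCG00840 had 3.28, 5.24 and 2.90 CPM in dxo1-2, 4.77, 4.30 and 2.35 CPM in xrn3-8, 2.25, 1.86 and 2.22 CPM in dxo1-2 xrn3-8, and 4.57, 4.58 and 3.47 CPM in Col-0. The double mutant lay below all libraries of the other genotypes. Its log2 fold change of −0.99 (SE 0.260, adjusted p = 0.00611, edgeR) was the most negative of the 33 in that comparison, at 151 to 335 reads per library, and plastid scaling ended the call (−0.37, adjusted p = 0.171, edgeR).

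ATCG00640 had 489.7, 359.6 and 462 CPM in dxo1-2, 330.3, 494 and 342 CPM in xrn3-8, 202, 400.5 and 201 CPM in dxo1-2 xrn3-8, and 468, 512 and 470.1 CPM in Col-0. Replicates 1 and 3 of the double mutant lay far below replicate 2, which was still below Col-0. The log2 fold change was −0.85 (SE 0.231, adjusted p = 0.00762, edgeR), a call that plastid scaling ended (−0.26, adjusted p = 0.238, edgeR). ATCG00830 had 219, 219 and 206 CPM in dxo1-2, 204, 218 and 157 CPM in xrn3-8, 159, 157 and 154 CPM in dxo1-2 xrn3-8, and 237, 226 and 200.3 CPM in Col-0. The double mutant libraries lay close together and below Col-0, with a log2 fold change of −0.50 (SE 0.106, adjusted p = 0.00160, edgeR).

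ATCG00740 had 1421, 1272 and 1422 CPM in dxo1-2, 1162, 1751 and 1363 CPM in xrn3-8, 1120.2, 1385 and 788 CPM in dxo1-2 xrn3-8, and 1495, 1527 and 1466 CPM in Col-0. The double mutant spread widely, below Col-0 in each library. Its log2 fold change of −0.45 (SE 0.174, adjusted p = 0.0486, edgeR) passed the threshold narrowly. Levels of ATCG00790 were 1642 to 1908 CPM in dxo1-2, 1582 to 2186 CPM in xrn3-8, 1156 to 1697 CPM in dxo1-2 xrn3-8 and 1825 to 2072 CPM in Col-0, with the double mutant below Col-0. ATCG00790, ATCG00820 and ATCG01300 fell by 0.39, 0.35 and 0.54 on the log2 scale, with adjusted p-values in edgeR of 0.0438, 0.0426 and 0.0452. The calls of these 3 and of ATCG00740 were each lost when single libraries were left out, any of the Col-0 replicates among them. With plastid scaling, ATCG00830, ATCG00740, ATCG00790, ATCG00820 and ATCG01300 turned to 0.12, 0.15, 0.22, 0.26 and 0.09.

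Of the 18 identifiers not called in the double mutant, ATCG00160 (log2 fold change −0.30), ATCG00650 (−0.62) and ATCG00780 (−0.37) had adjusted p-values of 0.0510, 0.0664 and 0.0667 in edgeR. Values of ATCG00050, ATCG00380, ATCG00760, ATCG00770, ATCG00800, ATCG00810 and ATCG01020 lay between −0.30 and −0.10, and the double mutant libraries of each overlapped with Col-0. ATCG01020, for example, had 962.2 to 1310.2 CPM in dxo1-2, 1146 to 1774 CPM in xrn3-8, 745.8 to 1715 CPM in dxo1-2 xrn3-8 and 1235 to 1612 CPM in Col-0. With plastid scaling, ATCG00160 was called higher in the double mutant, at 0.31. So were ATCG00380 (0.51), ATCG00760 (0.47), ATCG00770 (0.46), ATCG00800 (0.38) and ATCG00810 (0.31). ATCG00050 (0.31), ATCG00650 (−0.03), ATCG00780 (0.24) and ATCG01020 (0.36) were not called on that scale.

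ATCG01120 had the single positive value among the 33. It had 296, 231 and 282 CPM in dxo1-2, 220.2, 326 and 234 CPM in xrn3-8, 289, 353 and 187 CPM in dxo1-2 xrn3-8, and 268, 285 and 259 CPM in Col-0. The double mutant spread on both sides of Col-0, with a log2 fold change of 0.03 (SE 0.191, adjusted p = 0.917, edgeR). With plastid scaling, the double mutant's value was called higher, at 0.63 (adjusted p = 0.00208, edgeR).

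ATCG00170, ATCG00180 and ATCG00190 held close to Col-0 in all mutants. ATCG00190 had 970.4, 900.1 and 929.5 CPM in dxo1-2, 932, 1141 and 821 CPM in xrn3-8, 908, 938 and 752 CPM in dxo1-2 xrn3-8, and 929, 973 and 882 CPM in Col-0. ATCG00180 had 1079, 979 and 1014 CPM in dxo1-2, 1027, 1283 and 959.6 CPM in xrn3-8, 1041, 1076 and 861 CPM in dxo1-2 xrn3-8, and 1085, 1129 and 1048 CPM in Col-0. ATCG00170 had 1493, 1416 and 1445 CPM in dxo1-2, 1444, 1708 and 1227 CPM in xrn3-8, 1352, 1374 and 1069 CPM in dxo1-2 xrn3-8, and 1352, 1425 and 1277 CPM in Col-0. All mutant genotypes overlapped with Col-0 in these 3. In dxo1-2 xrn3-8 their log2 fold changes were −0.10, −0.13 and −0.10 for ATCG00170, ATCG00180 and ATCG00190, with SEs of 0.124, 0.116 and 0.118. With plastid scaling they were called higher, at 0.52, 0.48 and 0.51.

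ATCG00040 and ATCG00500 did not pass the threshold in any mutant on the TMM scale. ATCG00040 had 12872, 10776 and 12119.9 CPM in dxo1-2, 7827, 13806 and 8806 CPM in xrn3-8, 9420.0, 11510.5 and 6191 CPM in dxo1-2 xrn3-8, and 12332, 12454 and 10859.8 CPM in Col-0. The range from lowest to highest library within xrn3-8 and within the double mutant exceeded the difference of their means from Col-0. That difference was −0.39 on the log2 scale in dxo1-2 xrn3-8 (SE 0.222, adjusted p = 0.164, edgeR). ATCG00500 had 1362, 1227 and 1324 CPM in dxo1-2, 1405, 1763 and 1381 CPM in xrn3-8, 1278, 1473 and 1014 CPM in dxo1-2 xrn3-8, and 1526, 1541 and 1489.8 CPM in Col-0. Both genotypes with dxo1-2 lay below Col-0, by −0.22 (SE 0.130, adjusted p = 0.189, edgeR) in dxo1-2 and −0.28 (SE 0.130, adjusted p = 0.0969, edgeR) in dxo1-2 xrn3-8 on the log2 scale. With plastid scaling, ATCG00500 was called higher in dxo1-2 xrn3-8, at 0.33 (adjusted p = 0.0118, edgeR). ATCG00040 was not, at 0.21 (adjusted p = 0.295, edgeR).

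The double mutant was next set against each single mutant. Against dxo1-2, 5 of the 33 identifiers fell and 1 rose, where 15.5% of all tested genes were called lower and 16.4% higher. Those that fell were ATCG00640, ATCG00750, ATCG00830, ATCG00840 and ATCG01310, with log2 fold changes of −0.71, −0.39, −0.45, −0.85 and −0.41, and ATCG01230 rose by 0.43 (SE 0.153, adjusted p = 0.0472, edgeR). Against xrn3-8, 11 fell and 0 rose, where 20.5% of all tested genes were called lower and 22.9% higher. Among them ATCG00330 (−0.91) and ATCG01240 (−0.83) were called with and without xrn3-8 replicate 2. ATCG00905 had a log2 difference of −1.10, which was −0.66 (adjusted p = 0.00455, edgeR) without that library. ATCG00840 had −0.85, and its call was lost without that library (−0.74, adjusted p = 0.0561, edgeR). Scaled to the plastid total, 0 were lower and 8 higher than in dxo1-2, where the background was 4.18% lower and 44.2% higher. Against xrn3-8, 3 were lower and 7 higher on that scale, where the background was 5.91% and 55.1%.

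The interaction, which asks whether the double mutant departs from the sum of both single-mutant log2 changes, was called for 0 of the 33 identifiers by edgeR, where 8.67% of all tested genes were called lower and 12.2% higher. ATCG00750 alone had an unadjusted p under 0.05 (interaction −0.31, SE 0.129, adjusted p = 0.109, edgeR), and DESeq2 called 1 lower. Scaled to the plastid total, it was called for 0 lower and 2 higher, where the background was 4.63% and 16.2%. The median interaction was −0.17 over the 33 identifiers and 0.01 over all tested genes.

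Leaving out dxo1-2 xrn3-8 replicate 3 and xrn3-8 replicate 2 together, an alternative chosen after seeing the data, gave 12 identifiers lower and 0 higher in dxo1-2 xrn3-8 against Col-0, 7 lower in dxo1-2 and 6 lower in xrn3-8. Without dxo1-2 xrn3-8 replicate 2 alone, 19 were lower in dxo1-2 xrn3-8 and 0 in xrn3-8. Without the first pair of libraries, the double mutant had 4 identifiers lower and 3 higher than dxo1-2, 5 lower and 3 higher than xrn3-8, and an interaction called for 0 lower and 2 higher. Leaving out Col-0 replicate 2 left 9 of the 15 calls of the double mutant against Col-0. Of the 11 calls against xrn3-8, 6 were left without xrn3-8 replicate 2 and 7 without dxo1-2 xrn3-8 replicate 3. The interaction was called for 2 identifiers without xrn3-8 replicate 3 and for 1 without dxo1-2 xrn3-8 replicate 2. Of the 5 leaf markers, 1, 4 and 5 were called lower in dxo1-2, xrn3-8 and dxo1-2 xrn3-8, beside 6, 0 and 15 of the 33 identifiers. Their summed level was 9676.96 to 12545 CPM, 8963 to 11566 CPM and 5796 to 7815.5 CPM in those genotypes, against 12322 to 13962 CPM in Col-0. Their part in the result was not tested.

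Nuclear genes whose products work with the plastid-encoded polymerase were few, and several of their counts lie near the share of all tested genes called, which was 20.7% lower and 21.5% higher in dxo1-2, 18.1% and 16.3% in xrn3-8, and 22.0% and 24.4% in dxo1-2 xrn3-8. Of 6 sigma factor genes, 1 fell and 2 rose in dxo1-2, 2 fell and 1 rose in xrn3-8, and 3 fell and 1 rose in dxo1-2 xrn3-8. SIG2 had 30.6 to 38.3 CPM in dxo1-2, 39.5 to 40.1 CPM in xrn3-8, 25.0 to 27.1 CPM in dxo1-2 xrn3-8 and 42.2 to 52.6 CPM in Col-0, a log2 fold change of −0.86 (SE 0.0952, adjusted p = 5.71e-06, edgeR) in the double mutant. SIGE (AT5G24120) had 33.1 to 40.3 CPM in dxo1-2, 9.97 to 13.4 CPM in xrn3-8, 18.7 to 25.9 CPM in dxo1-2 xrn3-8 and 34.1 to 41.0 CPM in Col-0. Its log2 fold change was −1.68 (SE 0.138, adjusted p = 8.65e-07, edgeR) in xrn3-8 and −0.71 (SE 0.133, adjusted p = 0.000576, edgeR) in the double mutant. A link between these genes and the plastid identifiers was not tested.

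Of 12 nuclear genes for proteins associated with the polymerase, 0 fell and 5 rose in dxo1-2, 2 fell and 5 rose in xrn3-8, and 1 fell and 4 rose in dxo1-2 xrn3-8. PTAC2 rose by 0.43 on the log2 scale in the double mutant (SE 0.0850, adjusted p = 0.000830, edgeR) and MURE by 0.40 (SE 0.0745, adjusted p = 0.000516, edgeR). Of 3 phage-type polymerase genes, 0 fell and 0 rose in dxo1-2 and 0 fell and 1 rose in each genotype with xrn3-8. That gene, SCA3 (AT2G24120), had 25.2 to 28.3 CPM in dxo1-2, 31.0 to 33.8 CPM in xrn3-8, 29.7 to 31.3 CPM in dxo1-2 xrn3-8 and 22.9 to 25.3 CPM in Col-0, with log2 fold changes of 0.41 (SE 0.0726, adjusted p = 0.000612, edgeR) in xrn3-8 and 0.35 (SE 0.0725, adjusted p = 0.00129, edgeR) in dxo1-2 xrn3-8.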

How the data were processed

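Gene counts of 12 libraries were used as deposited by the authors, as whole-number read counts per gene with no normalization. HISAT2 2.0.4, SAMtools 1.1, HTSeq 0.6.0 and the build TAIR10 are named in the submitters' processing notes. The strand setting and the annotation are not given in the sources used here. The 5 summary lines of each file were left out; reads with more than 1 alignment made up 9.80 to 11.2% of all reads and are in no gene count, so genes present in 2 identical copies are undercounted, and overlapping genes are uncertain. Counting error is small at this depth, except for identifiers with few reads. The p-values weigh the difference between genotypes against the spread between replicates. Any pair of replicates differed by more than sampling noise (chi-square per degree of freedom 14.6 to 93.7 over 12 pairs).

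The members and lists were chosen with earlier results of these data known. Counts were analysed in R 4.3.3 with edgeR 4.0.16 (TMM scaling, filterByExpr with a minimum count of 10 and total of 15, quasi-likelihood test, 6 contrasts, SE from the log2 fold change and the F statistic); DESeq2 1.42.0 was an alternative. On simulated data, 93.5%, 90.0% and 90.5% of genes changed by 1 on the log2 scale were recovered in dxo1-2, xrn3-8 and dxo1-2 xrn3-8 against Col-0, with 3.11%, 5.26% and 6.70% of calls false (21974 genes). The simulation changed few genes, all of at least 1 CPM, with noise independent between genes. These rates do not describe smaller changes, or plastid genes that move together within a library. Alternatives were other scalings, filters, the replicate number as a block, and leaving out each library.

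Of the 33, those written out by library were a preset group of 7 and, in each of 2 further groups, the members with the most negative and the most positive or least negative change in the double mutant. The groups had been drawn up from published gene names, which are not printed because neither the files nor RefSeq (TAIR10.1) pair them with identifiers beyond 4 notes. Identifiers called in dxo1-2, those with a note, ATCG00640, ATCG00790, ATCG00830 and ATCG01020 were added after their values were seen. From each nuclear list, up to 2 genes called in the double mutant with the largest absolute change are named, by RefSeq symbol. A combined count table of the series was not used here.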

Additional observations from a re-analysis of the deposited data

How the results depend on the processing

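Scaled to the plastid total, 25 of the 32 negative values of dxo1-2 xrn3-8 against Col-0 turned positive, 14 of them called higher. The identifiers listed next were called or chosen for full description, and had a call on either scale. Among them, the log2 fold change turned positive for ATCG00190 (0.51), ATCG00180 (0.48), ATCG00170 (0.52), ATCG00740 (0.15), ATCG00750 (0.26), ATCG00820 (0.26) and ATCG00065 (0.28). It also did for ATCG01230 (0.15), ATCG00660 (0.57), ATCG00790 (0.22), ATCG00830 (0.12), ATCG01310 (0.24), ATCG01300 (0.088), ATCG00500 (0.33) and ATCG00670 (0.51). Those libraries had a smaller plastid share of gene counts than Col-0 and also higher TMM factors. Both enter the shift between the scales, and their parts were not separated. Of 1000 values of single genes under alternatives, 843 kept direction and side of the threshold, 70 changed sign with neither value called, 60 lost the call, 12 gained it and 15 turned with a call on at least 1 side. In xrn3-8 against Col-0, where 0 were called, 2 were called scaled to the plastid total, 1 with the replicate block, and 6 without dxo1-2 xrn3-8 replicate 3 and xrn3-8 replicate 2. For the interaction (0), 1 was called with upper quartile scaling (which moved the median of all genes to −0.10), 2 scaled to the plastid total, 1 with DESeq2 and 2 without those 2 libraries. Leaving out 1 library each gave 5 to 6 calls in dxo1-2, 0 to 1 in xrn3-8 (1 without Col-0 replicate 3, xrn3-8 replicate 1 or xrn3-8 replicate 3) and 9 to 19 in dxo1-2 xrn3-8 against Col-0. It gave 4 to 8 calls for the double mutant against dxo1-2 and 6 (without xrn3-8 replicate 2) to 13 against xrn3-8, with 7 without dxo1-2 xrn3-8 replicate 3. For the interaction it gave 0 to 2 (2 without xrn3-8 replicate 3, 1 without dxo1-2 xrn3-8 replicate 2). The cause was not tested. Replicate numbers did not pair the libraries: same-numbered libraries had correlations of −0.36 to 0.38 and 4 of 12 were closest to their own number. With the replicate block, 6, 1, 17, 6, 12 and 0 genes were called in dxo1-2, xrn3-8 and dxo1-2 xrn3-8 against Col-0, the double mutant against dxo1-2 and against xrn3-8, and the interaction. Depth limits the genes with few reads, such as ATCG01300 with 78 to 163 per library.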
